A study of Bos taurus with 5 samples.

Results

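The genes described here are the zinc finger genes named ZNF, ZFP, ZSCAN, ZKSCAN or ZBTB followed by a number, measured in longissimus dorsi, a long back muscle, of 5 Jiaxian Red cattle aged 18 months. They were chosen by gene symbol alone, leaving out ZBP1 and ZNFX1, and numbered 128 of the 9022 genes of the table, with 182 of its 13391 transcripts. Each animal gave 1 library of total RNA, and all 5 libraries formed 1 group with no treated or control arm, so genes were compared with each other within libraries and described across animals. The series title concerns POLB in cultured bovine myocytes; those cells were not analysed here.

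Most of these genes encode transcription factors in which short loops, each folded around a zinc ion by cysteine and histidine residues, read DNA base by base. The largest class carries a KRAB domain, which recruits the corepressor TRIM28 and with it enzymes that close chromatin, often over mobile elements. ZBTB proteins carry a BTB domain, which pairs the proteins and binds corepressors such as NCOR1, and ZSCAN and ZKSCAN proteins carry a SCAN domain, through which they pair. In muscle, ZBTB18 is known as a repressor that acts during differentiation of muscle cells, and ZNF423 marks the precursors of fat cells.

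The name does not guarantee that role. ZFP36 and ZFP36L1 have fingers of a different kind and bind messenger RNA, and ZBTB8OS, which matches by its symbol, encodes archease, a cofactor of tRNA ligation. ZNF207 acts at the mitotic spindle, ZNF598 is a ubiquitin ligase of stalled ribosomes and ZNF451 is a SUMO ligase. All are kept because the symbol was the rule. A RefSeq gene table of assembly ARS-UCD2.0 held 386 protein-coding genes whose symbols fit the rule, and 126 of the 128 members (32.6% of the 386) were among them, against 40.0% of all RefSeq protein-coding genes with a name. The others were not analysed here.

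Values were FPKM, a fragment count divided by transcript length and by library size, summed over the listed transcripts of each gene, and read depth is unknown. Transcript numbers had gaps in 51 of 128 members (39.8%), against 34.7% of all numbered genes, so a sum may leave out transcripts. The summed FPKM of all genes ran from 193706 in library 1 to 223251 in library 4. Of the markers chosen for myofibres 7 of 8 were listed, and their summed level ran from 16309 to 19145 FPKM. They were uneven: ACTA1 averaged 5134 ± 463 FPKM but CKM 16.2 ± 12.3 (SD, n = 5). CKM ran from 2.50 FPKM in library 5 to 35.5 in library 1, and MB from 106 in library 1 to 766 in library 5. Markers of other cells were present too: the summed level of 2 of 5 listed fibroblast markers ran from 316 to 651 FPKM, most of it COL3A1 at 457 ± 152 (SD, n = 5), and that of the 5 endothelial markers from 77.9 to 90.3. Of these 5, VWF averaged 0.0713 ± 0.0759 FPKM and PECAM1, the next lowest, 13.5 ± 1.79 (SD, n = 5). Of the 3 listed leukocyte markers of 5 chosen, which summed to between 121 and 205 FPKM, CD74 carried nearly all at 143 ± 32.9, with PTPRC at 2.65 ± 0.911 and CD3E at 0.274 ± 0.139 (SD, n = 5). The only listed adipocyte marker of 4, CIDEC, stayed at or below 0.809 and was listed at 0 in library 5. The summed markers of smooth muscle ran from 20.6 to 58.6 FPKM, those of Schwann cells from 28.1 to 44.1, and PAX7, the listed satellite cell marker, from 0.135 to 1.36. Most of the smooth muscle sum was ACTA2 at 34.1 ± 12.1, and most of the Schwann cell sum S100B at 32.5 ± 7.44 (SD, n = 5). In bulk tissue, fewer cells of a type and less RNA per cell cannot be told apart, and the part of these cells in the levels below was not tested.

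The listed zinc finger genes were detected about as often as all listed genes but were less often abundant. A mean of at least 1 FPKM, taken here as detection, was reached by 89 of 128 members (69.5%), close to the 68% of all genes. That 68% is also the background for the detection counts of the gene lists below. The shares separated higher up: 31 members (24.2%) averaged at least 5 FPKM against 39.6% of all genes, 12 (9.38%) at least 10 FPKM against 24.1%, and none reached 100 FPKM. They also separated at the bottom, where 18 members (14.1%) stayed under 1 FPKM in every library against 23.8% of all genes, while 67 (52.3%) reached 1 FPKM in every library against 57.4%. The median level over the 128 members was 2.33 FPKM, against 3.05 over all genes.

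**Figure D1:**
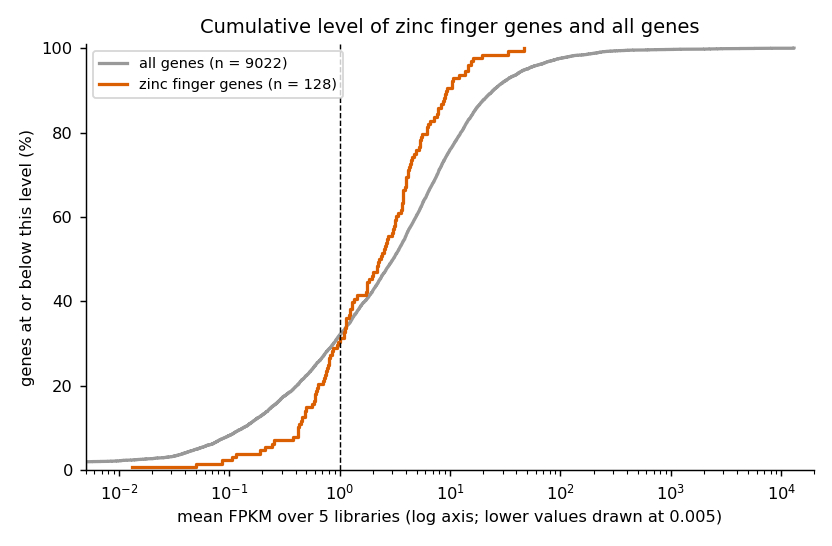
Cumulative share of genes (vertical axis, %) by mean FPKM over 5 libraries (horizontal log axis) for the 128 zinc finger genes and all 9022 genes; the dashed line marks 1 FPKM. The curves cross near 1 FPKM, where 69.5% and 68% of genes lie at or above the line, and the zinc finger curve ends below 100 FPKM.

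For libraries 1 to 5 the 128 genes summed to 520.8, 535.3, 529.0, 529.4 and 535.7 FPKM. This sum hardly differed between animals, at 530.0 ± 6.03 FPKM (SD, n = 5). As a share of all summed FPKM it was 0.256% ± 0.0121, highest in library 1 at 0.269% and lowest in library 4 at 0.237%, in the order opposite to the total of all genes in those libraries. The 10 most abundant members held 37.0% ± 0.779 of the family's sum (SD, n = 5).

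Set against a fixed level of 1 FPKM, 68 members were called above and 23 below by their mean, and 37 on neither side. The test was limma's moderated one-sample test on log2(FPKM + 1), with Benjamini-Hochberg adjusted p under 0.05 over all 9022 genes. Single libraries could lie on the other side. ZNF527, called above, was at 0.646 FPKM in library 5, and ZBTB7A, called below, at 1.48 in library 5. Of all genes 58.5% were called above, 25% below and 16.5% neither. Members that could not be placed were thus 28.9% of the family.

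Against the median detected gene of the same library, which lay between 6.28 and 6.42 FPKM, most detected zinc finger genes were low. The same test, over the 6136 detected genes, called 56 of 89 members below (62.9%) and 20 above (22.5%), against 41.6% and 41.4% of all detected genes; 13 were on neither side. The median detected member lay at 3.78, 3.54, 3.78, 3.87 and 3.995 FPKM for libraries 1 to 5, so the gap to the median detected gene was -0.57 to -0.68 on the log2 scale in every animal. With no detection limit, and the median of all 9022 genes as reference, 63 of 128 members were below and 40 above, against 43.7% of all genes in each direction. Where transcript numbers had no gap, 31 of 56 detected members were below (background 35.7%) and 17 above (48.4%); where they had one, 25 of 33 were below (52.2%) and 3 above (29.5%). The counts followed the detection limit. At a mean of 5 FPKM 20 of 31 members were below and 4 above the higher median. With 1 FPKM required in every library 45 of 67 were below and 11 above. Shares of all genes were not computed at these limits, so these counts describe the members only.

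**Figure D2:**
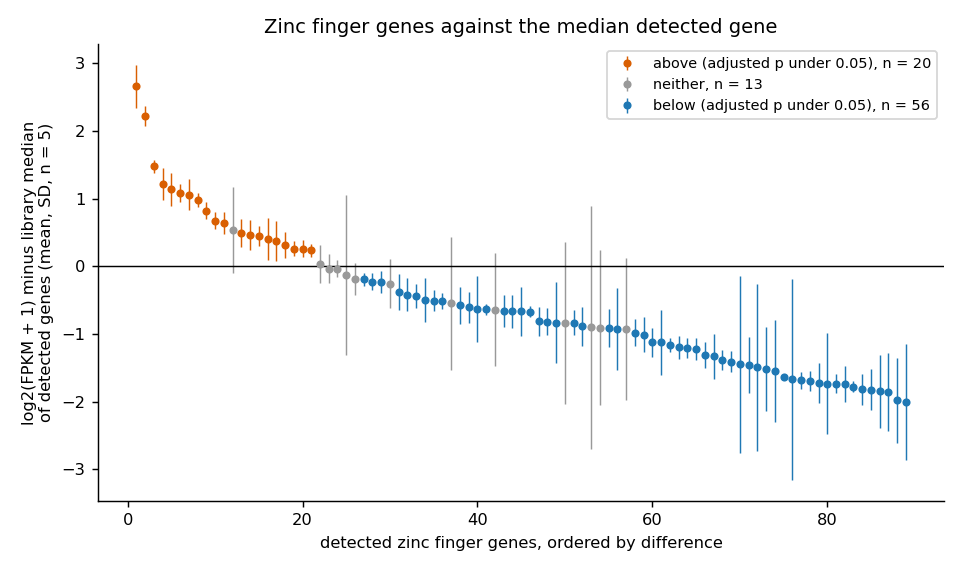
Difference between each of the 89 detected zinc finger genes and the median detected gene of the same library, on the log2(FPKM + 1) scale (points, mean; bars, SD over 5 libraries), in descending order. The 20 genes called above run from ZBTB18 at 2.66 down to ZNF318 at 0.24, and the 56 called below fill most of the right side.

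ZBTB18 was the most abundant member. Its levels for libraries 1 to 5 were 31.6, 48.6, 42.6, 53.3 and 55.6 FPKM, which average 46.3 ± 9.63 (SD, n = 5). Library 1 was the lowest and the other 4 lay at 42.6 or above. The gene exceeded 92.3% of detected genes and stood 2.66 ± 0.32 log2 units above the median detected gene (SD, n = 5; limma adjusted p = 3.22e-06). Its deposited position is chromosome 16, 33149470 to 33155673, and its transcript ZBTB18-201 carried 98.6% of its FPKM.

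ZNF207, whose product helps load the checkpoint protein BUB3 at kinetochores, came next. It was at 37.5, 36.0, 32.2, 31.2 and 29.7 FPKM in libraries 1 to 5, a mean of 33.3 ± 3.30 (SD, n = 5). It exceeded ZBTB18 in library 1 and lay below it in the other 4, and was above the third gene, ZBTB20, in 5 of 5 animals. Its 5 listed transcripts kept 1 leader in every library, ZNF207-204, with 79.1% of the mean. Of 14 genes chosen for known work with RNA, ribosomes, ubiquitin, SUMO or mitosis 7 were listed and 5 detected, with ZNF207 and the splicing-linked ZNF326 above the median detected gene and ZNF598 and ZNF451 below, beside 41.4% and 41.6% of all detected genes. ZNF326 averaged 7.83 ± 0.754 FPKM, ZNF598 4.32 ± 1.06 and ZNF451 5.30 ± 0.529 (SD, n = 5). The call of ZNF326 was lost without library 1 or 2, that of ZNF451 without any 1 of libraries 2 to 5, and ZNF598 and ZNF451 lay above the median after rescaling to TPM.

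ZBTB20, a BTB repressor first known for silencing the fetal alpha-fetoprotein gene in liver, had the smallest SD of log2(FPKM + 1) among the 10 most abundant genes, at 0.089. It was at 18.5, 21.2, 18.0, 19.8 and 20.03 FPKM in libraries 1 to 5, a mean of 19.5 ± 1.26 (SD, n = 5), on chromosome 1 from 58975735 to 59030035. It has 1 listed transcript and a gap in the numbering, so its sum may be partial. ZBTB20 was higher than the next gene, ZNF358, in 4 of 5 animals.

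Below these 3 the order was not fixed. ZNF358 (16.2 ± 2.97 FPKM), ZNF770 (15.4 ± 3.01), ZBTB10 (14.6 ± 1.30) and ZFP36 (14.5 ± 2.42; SD, n = 5) followed, then ZBTB1 at 12.1 to 14.8 FPKM, and within these 5 genes each exceeded the next in only 2 or 3 of 5 animals. ZNF358 was highest in library 4 at 20.7 FPKM and lowest in library 1 at 12.9, and ZNF770 was highest in library 3 at 20.4 and at most 15.6 elsewhere. ZKSCAN1 averaged 12.05 ± 1.205 FPKM and ZBTB11 10.75 ± 1.002 (SD, n = 5). ZBTB11, which controls nuclear genes for the respiratory chain, thus completed the 10 most abundant, of which 5 were ZBTB genes.

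**Figure D3:**
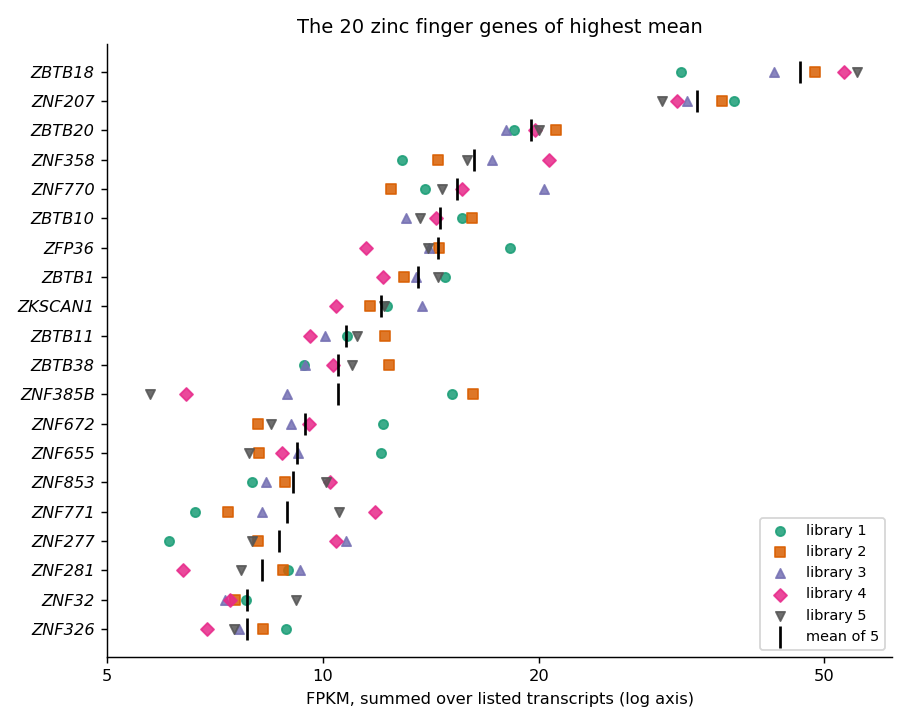
FPKM in each of 5 libraries (symbols) and the mean (black bar) of the 20 zinc finger genes of highest mean, on a log axis. ZBTB18 and ZNF207 stand apart at means of 46.3 and 33.3 FPKM, the genes from ZNF358 to ZBTB1 overlap, and ZNF385B runs from 5.74 to 16.2.

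Among the ZBTB genes 6 were abundant and the others mostly scarce. Of the 16 matching the prefix, 11 were detected, 6 were called above the median detected gene and 4 below, where 41.4% and 41.6% of detected genes were. The 6 above were ZBTB18, ZBTB20, ZBTB10, ZBTB1, ZBTB11 and ZBTB38, all at a mean of 10 FPKM or more. ZBTB38, which binds methylated CpG, was at 9.39, 12.4, 9.44, 10.3 and 11.0 FPKM in libraries 1 to 5. It stood 0.64 ± 0.16 log2 units above the median detected gene (SD, n = 5; limma adjusted p = 0.000388). ZBTB25, ZBTB34 and ZBTB37, at 2.41 ± 0.468, 1.99 ± 0.393 and 1.23 ± 0.383 FPKM (SD, n = 5), were below, as was ZBTB8OS. ZBTB7A, a repressor of glycolytic genes, averaged under 1 FPKM from a single listed transcript with a gap in numbering; it read 1.48 FPKM in library 5 and 0.176 or less elsewhere.

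Most corepressor genes for BTB proteins were detected. Of 14 chosen 12 were listed and 11 detected, where 68% of all listed genes were detected. Of the 11, 5 were above the median detected gene, 2 below and 4 on neither side, where 41.4% of all detected genes were above and 41.6% below. The list's median difference was 0.10 on the log2 scale. CUL3, the scaffold of a ubiquitin ligase that uses BTB proteins as adaptors, averaged 52.3 ± 5.90 FPKM, TBL1XR1 44.1 ± 3.73 and NCOR1 15.2 ± 1.37 (SD, n = 5). These 3 are abundant by the measure of the ZBTB genes themselves. RCOR1, at 4.02 ± 0.908 FPKM (SD, n = 5), was below.

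SCAN domain genes came next. The 23 symbols joined the 3 ZKSCAN and 4 ZSCAN members, listed by construction, with other genes chosen for this domain. Of the 11 listed, 5 were detected, where 68% of all listed genes were. Of the 5, 1 was above and 4 below the median detected gene, beside 41.4% and 41.6% of all detected genes. ZKSCAN1 was the one above, at 12.3, 11.6, 13.8, 10.4 and 12.2 FPKM in libraries 1 to 5 (limma adjusted p = 7.28e-05). The 4 ZSCAN genes listed, ZSCAN2, ZSCAN20, ZSCAN23 and ZSCAN25, all averaged between 0.722 and 0.825 FPKM, with ZSCAN20 listed at 0 in libraries 4 and 5 and ZSCAN25 at 0 in library 1. ZNF274, which guides the methyltransferase SETDB1 to zinc finger gene clusters, averaged 2.76 ± 0.559 FPKM and ZNF397 3.19 ± 0.562 (SD, n = 5), both called below; the other 2 below were ZKSCAN8 and ZNF24. The call of ZNF24 was lost without library 1, 2 or 4, and those of ZNF24 and ZKSCAN8 after rescaling to TPM.

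For the KRAB class the shared partners were partly listed; TRIM28 and SETDB1 themselves were not analysed here. Of 24 partner genes 15 were listed and 14 detected, where 68% of all listed genes were detected. Of the 14, 7 were above and 5 below the median detected gene, beside 41.4% and 41.6% of all detected genes. The list's median difference was 0.60 on the log2 scale. RBBP4, a histone chaperone of deacetylase complexes, averaged 42.5 ± 5.06 FPKM, MORC3 33.8 ± 6.41 and CBX1, an HP1 protein that binds methylated histone H3, 22.6 ± 5.19 (SD, n = 5). DNMT3A was below, at 1.24 ± 0.300 FPKM. Among KRAB genes, ZFP57, which protects imprinted methylation in embryos, had the smallest SD of log2(FPKM + 1) among members at 5 FPKM or more, 0.087 against 0.089 for ZBTB20. It was at 6.03, 5.59, 5.42, 5.09 and 5.10 FPKM in libraries 1 to 5, 0.19 ± 0.09 below the median detected gene on the log2 scale in 5 of 5 animals (SD, n = 5; limma adjusted p = 0.0450). That call was lost without any 1 of libraries 2 to 5 and with the highest transcript alone, and the direction turned after rescaling to TPM.

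The RNA-binding ZFP36 genes differed in level. ZFP36, or tristetraprolin, binds AU-rich elements and brings messenger RNA to decay; it was at 18.2, 14.5, 14.0, 11.5 and 14.0 FPKM in libraries 1 to 5. ZFP36L1 was at 1.79, 1.34, 0.596, 1.12 and 4.05, from 1 listed transcript with a gap in numbering, so its sum may be partial. ZFP36 was higher in 5 of 5 animals, and the log2 ratio of ZFP36L1 to ZFP36 was -2.58 ± 0.61 (SD, n = 5). Of 22 genes of messenger RNA deadenylation and decay or of its control, 12 were listed and 11 detected, where 68% of all listed genes were detected. Of the 11, 6 were above and 2 below the median detected gene (41.4% and 41.6% of all detected genes). The 2 below were CNOT1, listed at 0 in libraries 1 and 3, and KHSRP at 3.33 ± 1.41 FPKM (SD, n = 5). MAPKAPK2, the kinase that restrains ZFP36, averaged 58.9 ± 7.29 FPKM, the deadenylase CNOT7 27.0 ± 5.52 and the exonuclease XRN1 25.7 ± 0.877 (SD, n = 5).

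Zinc finger factors whose symbols lie outside the name rule gave a reference. Of 12 chosen 6 were listed and 5 detected, with 3 above and 2 below the median detected gene (41.4% and 41.6% of all detected genes). VEZF1, a factor of vessel development, averaged 15.1 ± 1.03 FPKM, REST, a repressor of neuronal genes, 10.1 ± 0.537 and ZEB2, a repressor of epithelial genes, 8.75 ± 1.30 (SD, n = 5). These 3 lay in the range of the 20 most abundant members.

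Genes tied to muscle and fat development ranged widely in level. Of 13 chosen 8 were listed and 7 detected, with ZBTB18 and ZBTB20 above the median detected gene and ZNF423, ZNF516, ZNF521 and ZNF217 below, beside 41.4% and 41.6% of all detected genes. ZNF423 turned to above after rescaling to TPM, where the detection limit lets in lower genes. ZNF423, which commits cells to the fat lineage, was at 5.61, 3.13, 4.56, 4.63 and 4.90 FPKM in libraries 1 to 5, lowest in library 2. ZNF521, its close relative that opposes fat cell formation, was at 2.04, 1.97, 1.68, 2.02 and 1.45. ZNF423 was higher in 5 of 5 animals, with a log2 ratio of 0.96 ± 0.30 (SD, n = 5). ZNF521 had a gap in its transcript numbers and ZNF423 had none. ZNF516, an activator of brown fat genes, averaged 4.21 ± 0.603 FPKM over 5 listed transcripts, and ZNF395 5.52 ± 1.18 (SD, n = 5), on neither side of the median detected gene.

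Of 11 factors of widely used promoters 4 were listed and 2 detected. Of the 2, 1 was above and 1 below the median detected gene, beside 41.4% and 41.6% of all detected genes. ZNF281, a regulator of stem cell genes, was the highest of the 4, at 8.21 ± 1.19 FPKM (SD, n = 5), 0.32 ± 0.20 above the median detected gene on the log2 scale (limma adjusted p = 0.0183). That call was lost without library 1, 2 or 3. ZNF410, known for its near-exclusive control of the chromatin remodeller gene CHD4, was at 3.75, 4.85, 1.16, 2.63 and 4.54 FPKM in libraries 1 to 5. It was called below (limma adjusted p = 0.0106), and ZNF384 averaged 0.601. Of the 11 chromatin partners 5 were listed and 4 detected; ZNF280C and ZNF217 were called below and none above, beside 41.6% and 41.4% of all detected genes. ZNF532 and ZNF592, which share a complex with ZNF687, were each low in a different library, ZNF532 at 0.395 FPKM in library 4 against 8.21 in library 2, and ZNF592 at 0.724 in library 3 against at least 4.32 elsewhere.

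Of 24 pairs of related genes chosen for comparison within each library, 8 had both genes listed, and 4 pointed 1 way in 5 of 5 animals. Besides ZFP36 over ZFP36L1 and ZNF423 over ZNF521 these were ZKSCAN1 over ZKSCAN8, with a log2 ratio of 2.32 ± 1.23, and ZFX over ZNF711, where ZNF711 over ZFX was -0.76 ± 0.44 (SD, n = 5). With 5 animals the smallest p that an exact two-sided sign-flip test allows is 0.063, which is what these 4 pairs gave (Benjamini-Hochberg 0.125 over 8 pairs), so none passed 0.05. With limma's moderated test 3 of the 8 passed: ZFP36L1 and ZFP36 (adjusted p = 0.000822), ZKSCAN1 and ZKSCAN8 (0.00904) and ZNF423 and ZNF521 (0.0209). No matching share was computed for other pairs of listed genes, so these counts describe the 8 pairs only. ZKSCAN8 was listed at 0 in library 1 and was 0.0711, 5.02, 3.79 and 2.93 FPKM for libraries 2 to 5, so the size of its ratio follows libraries 1 and 2. ZKSCAN8 also has 1 listed transcript and a gap in the numbering, so its sum may be partial. ZNF711 and ZFX were nearly level in library 4, at 0.638 and 0.684 FPKM, a log2 ratio of -0.04. ZNF711 averaged 0.449 FPKM, under the detection limit, and ZFX has a gap in its transcript numbers.

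The other 4 pairs did not separate. ZNF385A was below ZNF385B in 4 animals and above it in library 5, with a ratio of -1.44 ± 1.66 (exact sign-flip p = 0.125, adjusted 0.2). ZNF385B itself reached 15.1 and 16.2 FPKM for libraries 1 and 2, above the 8.90, 6.44 and 5.74 of libraries 3 to 5. ZNF24 against ZNF397 (-0.85 ± 1.63), ZNF532 against ZNF592 (-0.29 ± 1.59) and ZBTB7A against ZBTB7C (-0.28 ± 0.89; SD, n = 5) each had SDs wider than the mean, with exact sign-flip p of 0.25, 0.688 and 0.5. In these pairs ZNF24, ZNF532, ZNF592 and ZBTB7C were each under 1 FPKM in at least 1 library, as ZBTB7A was in 4.

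**Figure D4:**
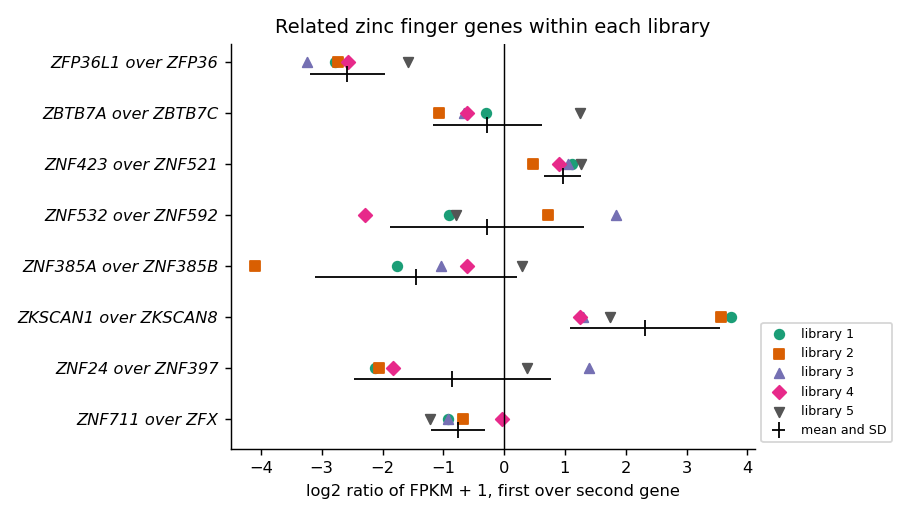
Log2 ratio of FPKM + 1, first over second gene, for 8 pairs in each of 5 libraries (symbols), with mean and SD below each row. ZFP36L1 over ZFP36 lies left of 0 and ZKSCAN1 over ZKSCAN8 right of 0 in all 5 libraries, while ZNF532 over ZNF592 spans both sides.

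Most detected zinc finger genes varied as little as other genes, but a minority varied widely. Between libraries, log2(FPKM + 1) had a median SD of 0.24 for the 89 detected members and 0.25 for all 6136 detected genes. An SD of at least 1 was reached by 8 of 89 (8.99%) against 3.63% of detected genes. In the band from 1 to 5 FPKM it was 6 of 58 members (10.3%) against 4.48% of genes, and from 5 to 10 FPKM 2 of 19 (10.5%) against 4.01%; 0 of the 12 members at 10 FPKM or more did, against 2.39%. Of the 8 genes 6 had gaps in their transcript numbers, where 39.8% of all members did. A single listed transcript was found for 7 of the 8, where 71.1% of all members and 70.2% of all genes had 1. Without such gaps 2 of 56 detected members (3.57%) reached an SD of 1 against 1.92% of genes, and with them 6 of 33 (18.2%) against 5.85%. The count of 8 became 16 with a pseudocount of 0.1 and 0 where 1 FPKM was required in every library. Shares of all genes were not computed in these settings, so no excess over other genes is shown there.

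The 8 and the next 2 in order were ZNF706, ZNF24, ZNF12, ZKSCAN8, ZNF784, ZNF527, ZNF385A, ZNF532, ZNF639 and ZNF19. ZNF706, which encodes a very small finger protein, read 1.65, 6.50, 0.0227, 22.8 and 0.954 FPKM for libraries 1 to 5. ZNF24, a SCAN gene needed for myelination in the brain, read 8.76 FPKM in library 3, 3.995 in library 5 and at most 0.191 elsewhere. ZNF12 was listed at 0 for libraries 1 and 4, against 3.71, 5.30 and 3.80 FPKM for the other 3. ZNF24 and ZNF12 thus shared libraries 1 and 4 as low, while ZNF706 was highest in library 4.

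ZNF784 was listed at 0 in library 1 and lay between 2.94 and 6.32 FPKM in the other 4, and ZNF385A was at 0.00287 in library 2 and between 3.74 and 7.30 in the rest. ZNF527 was at 0.646 FPKM in library 5 and between 6.29 and 12.1 elsewhere. ZNF639 read 1.05 and 1.89 for libraries 3 and 4 but 6.61 to 8.21 for the other 3. ZNF19 was listed at 0 in libraries 2 and 5 and reached 2.61 in library 3. Values near 0 beside values of several FPKM were not limited to these genes. A library under 0.1 FPKM and another of at least 1 FPKM were combined by 22 of 128 members (17.2%), against 5.7% of all genes. Of the 22, 15 had gaps in their transcript numbers, where 39.8% of all members did. A value of exactly 0 in some library was listed for 10 of 128 members (7.81%, against 12.8% of all genes) and for 6 of the 89 detected ones (6.74%, against 2.67%). An estimate per transcript can be 0 for a gene that is expressed, so these values do not show absence.

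**Figure D5:**
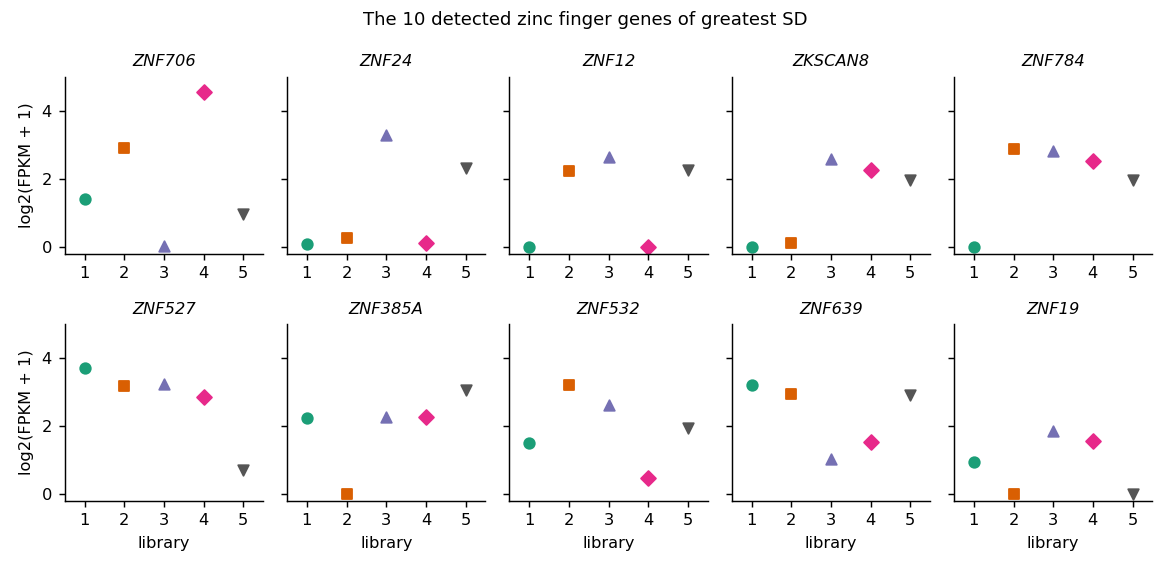
Log2(FPKM + 1) by library for the 10 detected zinc finger genes of greatest SD, 1 panel per gene. Library 1 is lowest or tied at 0 for ZNF24, ZNF12, ZKSCAN8 and ZNF784, library 2 for ZNF385A and ZNF19, library 3 for ZNF706 and ZNF639, library 4 for ZNF532 and library 5 for ZNF527; ZNF12 is also at 0 in library 4 and ZNF19 in library 5.

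At the other end, ZFP57, ZBTB20, ZNF318, ZBTB1 and ZNF32 had the smallest SDs of log2(FPKM + 1) among members at a mean of 5 FPKM or more. ZNF318 averaged 7.69 ± 0.671 FPKM and ZNF32 7.84 ± 0.758 (SD, n = 5), both called above the median detected gene. The call of ZNF32 was lost without library 5, and that of ZNF318, which has a gap in its transcript numbers, without library 1, 3 or 5. Highest over lowest library was 1.19-fold for ZFP57, 1.17-fold for ZBTB20 and 1.22-fold for ZBTB1. The 12 members at 10 FPKM or more stayed within 1.76-fold except ZNF385B, at 2.82-fold.

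The animals differed little for the family as a whole. The count of the 89 detected members above their own mean was 47, 41, 45, 46 and 51 for libraries 1 to 5. The median deviation ran from -0.02 in library 2 to 0.05 in library 1 on the log2 scale, and less that of all detected genes from -0.03 in library 3 to 0.05 in library 1. For single genes, 10 of 89 detected members (11.2%, against 7.37% of detected genes) had 1 library far from the other 4, by a gap of over 0.71 of the range. Library 1 held the highest value of 23 members (25.8%, against 24.4% of detected genes), and library 5 the lowest of 9 (10.1%, against 15.4%).

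By position, the family was concentrated on chromosome 18. It held 25 of 128 members (19.5%), against 4.63% of all listed genes, and 26.2% of the RefSeq genes of these names. Of the 25, 18 were detected (72%, against 68% of all genes). One of the 25, ZFP36, averaged 10 FPKM or more, as 24.1% of all genes did. Chromosomes 7 and 25 followed with 13 and 10 members. The 52 members whose nearest RefSeq protein-coding neighbour on at least 1 side was of the family had a median level of 2.47 FPKM and 37 were detected (71.2%). The 74 without had 2.02 FPKM and 50 were detected (67.6%), both shares near the 68% of all genes. These medians are given as a description, with no test.

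Levels were also set side by side for neighbouring members. In 21 cases 2 members followed each other among the listed genes, and their median absolute difference was 1.21 on the log2(FPKM + 1) scale, against 1.62 for all 8969 such neighbours. A difference of at least 1 was found for 52.4% of the 21 and 65.8% of all, a description with no test. ZNF236 and ZNF516 (-0.16) and ZNF777 and ZNF862 (0.20) were among the closest in level, and the next pairs were among the more distant. ZBTB25 and ZBTB1, on chromosome 10 from 76631651 to 76648488 and from 76649277 to 76673248, lie 789 bases apart. ZBTB1 was the higher in 5 of 5 animals, at 12.1 to 14.8 FPKM against 1.60 to 2.80. On chromosome 7, ZNF672 (42627861 to 42629258) was likewise above ZNF692 (42630682 to 42639054) in 5 of 5, at 8.12 to 12.1 FPKM against 2.33 to 4.07. The family holds many close relatives, and how reads shared between them were assigned is not given in the sources used here. In the table's coordinates 11 members overlapped another listed gene, among them ZNF784 and ZNF579 with ZNF524, and ZNF277 with DOCK4. Whether fragments were counted by strand is not given either, so these values are uncertain.

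Of the 37 members with several listed transcripts 31 were detected. Over these 31 the transcript of highest mean carried a median of 82.4% of the gene's mean. The leading transcript was the same in all 5 libraries for 25 of the 31. It changed in 6: ZNF217, ZNF236, ZNF410, ZNF524, ZNF532 and ZNF800. ZNF410-201 was at 1.12, 3.93, 0.329, 1.21 and 1.78 FPKM in libraries 1 to 5 and ZNF410-203 at 1.09, 0.826, 0.804, 1.38 and 2.73, while ZNF410-204 led in library 1 at 1.54 and was at most 0.0932 elsewhere. ZNF532-204 likewise led in library 1 at 1.34 FPKM, where ZNF532-201 was at 0.492, and stayed at or below 0.0287 in the others.

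The remaining 39 members, under a mean of 1 FPKM, included 21 that reached 1 FPKM in some library. ZNF674, at 2.29, 1.06, 0, 0.908 and 0.740 FPKM for libraries 1 to 5, was the last member counted as detected and ZNF75D, at 0.964 ± 0.293 FPKM (SD, n = 5), the first below. ZNF131 and ZNF420 followed, and the lowest were ZNF365, ZNF414 and ZNF536, at means of 0.0854, 0.0498 and 0.0132 FPKM.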

How the data were processed

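Total RNA of longissimus dorsi was sequenced from 5 cattle, 1 library per animal, per the labels' protocols. The authors deposited FPKM per transcript and library, per the file headers. The submitters' processing notes name HTSeq 0.6.0, DESeq2 1.10.1 and the build UMD3.1, with no role given; the aligner, the program behind the FPKM and the annotation release are not given in the sources used here. Of 126 members matched by symbol to RefSeq's ARS-UCD2.0 table, 124 overlapped their position there, so no build is claimed for the coordinates. No counts were given, so depth is unknown and no counting interval was computed.

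Transcript FPKM were summed per gene identifier. Tests used log2(FPKM + 1) in limma 3.58.1 (R 4.3.3), as moderated one-sample tests against 1 FPKM over all genes and against each library's median of detected genes, with Benjamini-Hochberg adjustment and 0.05 as the threshold; limma was tested on simulated data. Fold values understate differences of low genes. Pairs used an exact sign-flip test. A library stood apart where Dixon's gap ratio passed 0.71. Python 3.11.15, numpy 2.4.6, pandas 2.3.3 and matplotlib 3.10.9 were used. P-values measure the spread between these animals only. No value column was left unmapped.

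Members, lists and pairs were chosen with earlier results of these data known. The rule named the 10 most abundant members, the 10 detected members with the greatest SD, the 5 of smallest SD at 5 FPKM or more, both genes of each pair, the 3 highest and 2 most variable of each list, and members with a library apart. Other genes named, such as those described for neighbours, transcripts, overlaps or lowest levels, were chosen after their values were seen. Alternatives were a pseudocount of 0.1, other detection limits, the highest transcript alone, Ensembl transcripts alone, rescaling to TPM, median-ratio size factors, each library left out and exact tests. Limma with a mean-variance trend, and leaving out members of other known roles or with gaps in transcript numbers, were added after seeing the data.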

Additional observations from a re-analysis of the deposited data

Results flagged for a closer look

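In 16 members 1 library stood far from the other 4, by a gap to the nearest library of over 0.71 of the whole range on the log2(FPKM + 1) scale. About 1 group of 5 in 20 does so by chance. Among detected members there were 10 of 89 (11.2%), against 7.37% of detected genes, 8 with the distant library low and 2 with it high. The distant library was library 1 in 3 of the 16 genes, library 2 in 4, library 3 in 2, library 4 in 3 and library 5 in 4.

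A low library stood apart for ZNF527 (gap ratio 0.718; library 5), ZNF598 (0.799; library 2), ZNF592 (0.822; library 3), ZNF385A (0.734; library 2) and ZBTB25 (0.733; library 4). The same held for ZNF217 (0.84; library 4, at 0.00399 FPKM against 1.89 to 2.54 elsewhere), ZFP28 (0.913; library 1, at 0.0477 against 1.34 to 1.53) and ZNF576 (0.821; library 1, listed at 0 against 1.20 to 1.62). A high library stood apart for ZNF395 (0.715; library 5, at 7.58 FPKM against at most 5.31) and ZNF354A (0.78; library 2, at 6.52 against at most 5.15).

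The 6 members under a mean of 1 FPKM were ZSCAN2 (0.779; library 3 low), ZNF454 (0.891; library 2 low, listed at 0), ZNF213 (0.805; library 4 high), ZBTB7A (0.848; library 5 high), ZNF624 (0.797; library 1 high) and ZNF572 (0.854; library 5 high). The causes were not tested.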

How the results depend on the processing

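No paired analysis was possible because all 5 libraries form 1 group. Leaving out each library in turn gave 66 to 67 members above 1 FPKM and 18 to 20 below, 17 to 18 above and 51 to 54 below the median detected gene, 87 to 92 detected, 7 to 8 with an SD of at least 1, a median level of 2.18 to 2.34 FPKM, and 0 pairs. Rescaling to TPM multiplies every value about 5 times, so a limit of 1 lets in lower genes: 4 members were then below 1, 25 had an SD of at least 1, the median level was 11.1, and library 1's median deviation less that of all genes was 0.017. TPM shifted the median detected gene by 2.002 to 2.20 log2 units, and size factors by at most 0.04 in either direction.

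Other detection limits changed counts against the median detected gene: 4 above and 20 below at 5 FPKM, 40 above with no limit, and 11 above with 1 FPKM required in every library. Shares of all genes were not computed at 5 FPKM or with 1 FPKM required in every library. At 5 FPKM 31 members were detected. The exact sign-flip test, which 5 libraries keep from passing, called 0 members in all 4 counts, at an unadjusted p under 0.05 too. Members without gaps in transcript numbers gave 31 below and 2 with an SD of at least 1. That last count was 16 with a pseudocount of 0.1 and 0 with 1 FPKM required in every library, and no share of all genes was computed for either. The highest transcript alone gave a median level of 1.998 FPKM, and limma called 3 pairs.

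Of 44 named members in 481 comparisons with the median detected gene, 427 kept direction and call, 37 lost the call, 8 gained it and 9 changed direction. The 9 were, with TPM, ZNF527 (0.34), ZFP57 (0.38), ZNF423 (0.12), ZNF451 (0.34), ZNF598 (0.025), ZNF395 (0.38), ZFP14 (0.17) and ZNF354A (0.33), and ZNF527 without library 5, where leaving out single libraries gave -0.39 (library 1) to 0.39. For the log2 ratio of ZNF532 to ZNF592 leaving out single libraries gave -0.82 to 0.21, the latter without library 4. Where no construction of the setting shows it, the cause was not tested.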
